A study of Mus musculus with 4 samples.

Results

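The receptors of the signalling lymphocyte activation molecule (SLAM) family and their adaptor SAP were followed in resting CD4 T cells with and without the Ifitm gene family. Members were the genes Slamf1, Cd84, Ly9, Slamf6, Slamf7 and Cd48, which encode receptors, and Sh2d1a, which encodes SAP. Each of the 7 was represented by 1 probe set annotated to that gene alone, of 34760 probe sets and 19937 genes in all. The SLAM genes are polymorphic between inbred strains of mice, so each gene is shown by its own probe set and its value on each array.

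SLAM receptors are immunoglobulin-like surface proteins of haematopoietic cells. Most bind a further copy of themselves on a neighbouring cell, so that 2 lymphocytes in contact signal to each other. In most of them the cytoplasmic tail carries tyrosine switch motifs that recruit SAP, a small SH2-domain protein. SAP couples these receptors to the Src-family kinase Fyn. In CD4 T cells SAP is known for stable T cell to B cell contacts and the help that follicular helper T (Tfh) cells give to germinal centres, and it is needed for the development of natural killer T (NKT) cells. CD48 differs from the other receptors in that it is held in the membrane by a lipid anchor and binds CD2 and CD244.

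Affymetrix Mouse Gene 1.0 ST arrays were hybridised with total RNA of CD4 T cells purified from mouse spleen by negative selection. Wild-type (WT) mice gave 2 of the samples, and mice without any gene of the Ifitm family gave the other 2 (labelled Ifitm-/-, here IfitmF-/-). Animals of both genotypes were adults of 6 to 8 weeks, the cells were not stimulated, and per the study the deletion was on a C57BL/6 background and each array held cells pooled from a pair of mice. Values are robust multi-array average (RMA) intensities on the log2 scale, changes are IfitmF-/- minus WT, and a gene was called at an adjusted p under 0.05 in limma over all probe sets. With 2 arrays per genotype, the number of arrays limits the precision.

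Ifitm3 was at 9.26 and 8.91 in WT against 4.61 and 4.36 in IfitmF-/- cells, in the direction of the labels. Xist, the RNA of the inactive X chromosome, was at 11.32 and 11.25 in WT and 4.86 and 4.43 in IfitmF-/- cells, and the Y-linked Eif2s3y at 3.90 and 4.05 against 9.48 and 9.61. The WT arrays therefore read as female and the IfitmF-/- arrays as male, so that sex and genotype cannot be told apart in any result given here. CD4 T cell markers were bright on all arrays, with a summed linear intensity of the 8 markers of 22070 and 22710 in WT and 24297 and 23905 in IfitmF-/- cells. WT replicate 1 stood apart in B cell markers, whose sum over 11 genes was 12705 there and 3591 to 5595 on the other arrays. IfitmF-/- replicate 2 stood apart in platelet markers, whose sum over 6 genes was 11340 there and 2816 to 5284 on the others. Erythroid markers summed over 4 genes to 2586 and 3716 in WT and 6101 and 5500 in IfitmF-/- cells, with a median change of 1.25. Of the 4, 3 had both IfitmF-/- arrays above both WT arrays, as had 27.5% of all probe sets and 35.5% of those at or above the median brightness. Alas2 had a change of -0.0035, with overlap. Slc4a1 and Epb42 also differed within WT, at 9.24 and 11.19 and at 5.95 and 7.78. The part of erythroid transcript in the results given here was not tested. Of the T cell markers the CD3 chains Cd3d and Cd3g rose by 0.59 each and the costimulatory receptor Cd28 fell by 0.74 (adjusted p = 0.0284, 0.0304 and 0.0202). No B cell, CD8 T cell, myeloid, platelet or erythroid marker was called, with smallest adjusted p values for Fcer2a (0.318) and Cd74 (0.335), Cd8a (0.168) and Cd8b1 (0.643), Lyz2 (0.0942) and Itgax (0.595), Ppbp (0.157) and Itgb3 (0.17), and Epb42 (0.16) and Slc4a1 (0.209) in this order. Of the neutrophil markers Retnlg rose (1.83, adjusted p = 0.0136). Of these 7 dim markers, 0 reached the median brightness of all probe sets. Their changes ran from 0.06 to 1.83, and 5 had both IfitmF-/- arrays above both WT arrays, beside 27.5% of all probe sets.

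Of the 7 members, 4 rose in IfitmF-/- cells and 0 fell. They were Cd48, Sh2d1a, Cd84 and Slamf6, with changes of 1.09, 0.75, 0.66 and 0.60 and adjusted p values of 0.0321, 0.0352, 0.0373 and 0.0452 in limma. Over all probe sets 4.48% were called higher and 3.95% lower, and among the 17380 probe sets at or above the median brightness, to which all 7 members belong, 7.46% were called higher and 6.88% lower. Slamf1, Ly9 and Slamf7 were not called. The median change of the 7 genes was 0.60, beside -0.02 over all probe sets. Leaving out any 1 array left a single array in a genotype. The calls of all probe sets were then lost, so the loss of these 4, and of every listed gene below, is not particular to them. Changes of the 4 genes were then 0.52 to 1.29. A test of each probe set on its own, without the moderated variance, also ended all 4 calls after adjustment (adjusted p of 0.194 to 0.219). That test called 4 of all 34760 probe sets, so this loss too is shared by nearly all genes. Cd84 was named in the study's account of these arrays, so its rise is not independent evidence.

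**Figure D1:**
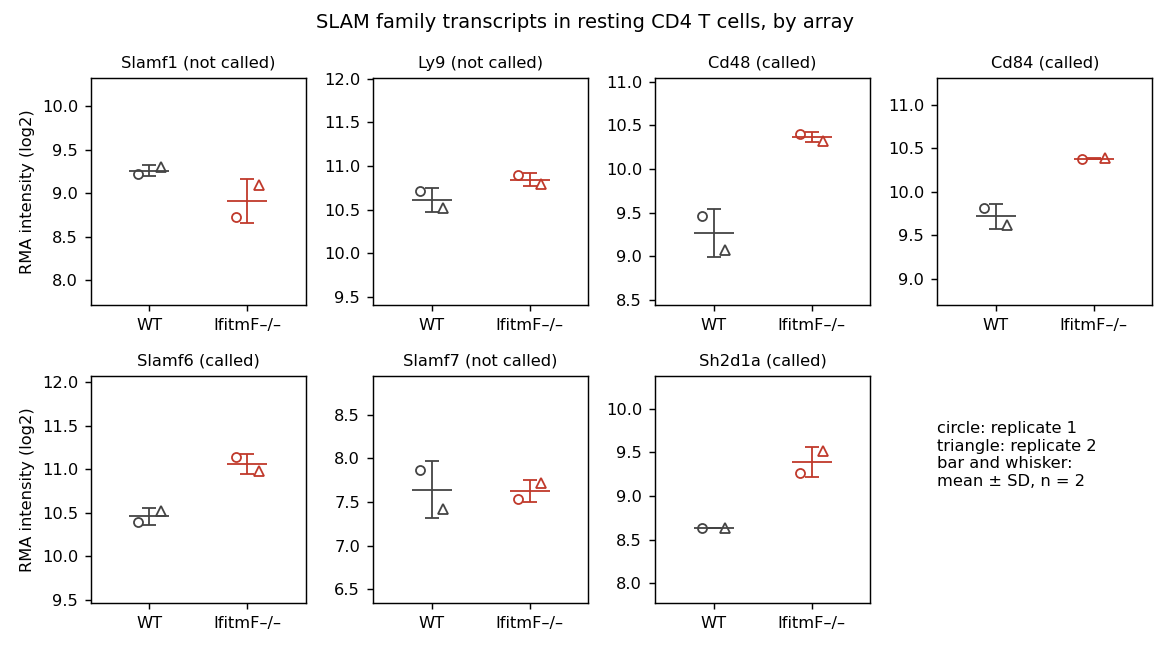
RMA intensity (y axis, log2, each panel spanning the same height around its gene) of the 7 SLAM family genes on the WT and IfitmF-/- arrays; circles and triangles are replicates 1 and 2, and bars with whiskers the mean ± SD of n = 2. Both IfitmF-/- arrays lie above both WT arrays for Cd48, Cd84, Slamf6, Sh2d1a and Ly9, both lie below for Slamf1, and the genotypes overlap for Slamf7.

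The receptor with the largest change was Cd48, the lipid-anchored ligand of CD2 and CD244. The Cd48 values were 9.47 and 9.08 in WT against 10.40 and 10.32 in IfitmF-/- cells. The genotypes did not overlap, and the lowest IfitmF-/- array lay 0.86 log2 units above the highest WT array. Means were 9.27 ± 0.28 and 10.36 ± 0.06 for the genotypes in this order (SD, n = 2), a 2.13-fold rise with a 95% interval of 0.68 to 1.51 log2 units. Cd48 was the single member to pass a stricter criterion drawn from the study's methods and applied to the present fit, under which a called gene must differ by more than 2-fold and span 250 linear units or more. Of all probe sets 1.16% passed it here. CD48 is found on most leukocytes, and the WT array with more B cell transcript was the higher of the WT pair. Without that array the change of Cd48 was 1.29, and without the other WT array 0.90. The part of B cell transcript in the Cd48 values was not tested.

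Cd84 and Slamf6 encode receptors that bind themselves and are used in contacts between T and B cells. Cd84 was at 9.82 and 9.62 in WT and at 10.37 and 10.38 in IfitmF-/- cells, with both IfitmF-/- arrays above both WT arrays. Its means were 9.72 ± 0.14 and 10.38 ± 0.0049 (SD, n = 2), a 1.58-fold rise with an interval of 0.39 to 0.93 log2 units. Slamf6, also known as Ly108, was at 10.39 and 10.53 in WT and at 11.14 and 10.98 in IfitmF-/- cells, again without overlap. Its means were 10.46 ± 0.10 and 11.06 ± 0.12 (SD, n = 2), a 1.52-fold rise with an interval of 0.32 to 0.88. Slamf6 lay nearest to the threshold of the 4 calls. CD84 is also a platelet protein. The summed platelet intensity was 4214 and 2816 in WT and 5284 and 11340 in IfitmF-/- cells. None of the 6 platelet markers was called, and their changes ran from 0.35 to 1.39. Both IfitmF-/- arrays lay above both WT arrays for 3 of them. The same held for 35.5% of probe sets of at least median brightness, to which all 6 belong. The part of platelet transcript in the Cd84 change was not tested.

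Sh2d1a, the SAP gene, was at 8.64 on each WT array and at 9.27 and 9.51 on the IfitmF-/- arrays, which did not overlap with WT. Means were 8.64 ± 0.00098 and 9.39 ± 0.17 (SD, n = 2), and the rise was 1.68-fold with an interval of 0.45 to 1.05 log2 units. The SE of 0.11 from limma belongs to the change. It rests on the spread of both genotypes and of all probe sets, not on the WT pair alone. Sh2d1a is X-linked, and of 739 X-linked genes 3.38% were called higher and 2.57% lower. The part of sex in the Sh2d1a change cannot be told apart from that of genotype. SAP is also made in NK cells, and the 8 NK cell markers summed to 2832 and 2291 in WT and to 2320 and 2131 in IfitmF-/- cells. Of these markers 1, the granule gene Nkg7, fell (change of -0.89, adjusted p = 0.0321). The other 7 markers summed to 1197 and 910 in WT and to 1555 and 1270 in IfitmF-/- cells, and the median change of all 8 was 0.19. The receptor genes Klrd1, Ncr1 and Klrb1c had changes of 1.11, 0.75 and 0.58 without a call (adjusted p = 0.0683, 0.189 and 0.0837). Each had both IfitmF-/- arrays above both WT arrays, as had 27.5% of all probe sets and 35.5% of those at or above the median brightness. Klri2, Klre1, Prf1 and Gzma had changes of 0.21, 0.18, 0.02 and -0.30, with overlap between the genotypes. The part of NK transcript in the Sh2d1a change was not tested. In bulk RNA more cells of a type and more RNA per cell cannot be told apart, here and for every gene below.

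The other receptors did not pass the test. Slamf1, the founding member of the family, was at 9.22 and 9.30 in WT and at 8.73 and 9.09 in IfitmF-/- cells. Both IfitmF-/- arrays lay below both WT arrays by 0.13 or more, and the change of -0.35 had an interval of -0.74 to 0.04 (adjusted p = 0.23). Ly9, whose product CD229 binds itself, was at 10.71 and 10.51 in WT and 10.89 and 10.79 in IfitmF-/- cells. Its arrays were also apart, by 0.087 log2 units, with a change of 0.23 and an interval of -0.05 to 0.52 (adjusted p = 0.257). In all 5 members had both IfitmF-/- arrays above both WT arrays and 1 had both below, against 27.5% and 30% of all probe sets, and 35.5% and 33.3% of those of at least median brightness.

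Slamf7, a receptor known from plasma cells, NK cells and activated lymphocytes, was measured in the middle range of each array, with 66.9% to 72.9% of all probe sets dimmer. Its values were 7.87 and 7.42 in WT and 7.54 and 7.72 in IfitmF-/- cells, and the genotypes overlapped. Its change of -0.01 had an interval of -0.50 to 0.47 (adjusted p = 0.97). The arrays of higher Slamf7, WT replicate 1 and IfitmF-/- replicate 2, were also those of higher myeloid markers, with summed intensities over 8 genes of 7759 and 8490 against 5052 and 4831, and of higher B cell markers (12705 and 5595 against 4465 and 3591). Plasma cell markers summed to 4034 and 2786 in WT and to 2058 and 1943 in IfitmF-/- cells. Of the 6, 1 was called lower, the secretory pathway gene Derl3 (-0.98, adjusted p = 0.0274). All 6 had both IfitmF-/- arrays below both WT arrays, with changes of -0.99 to -0.55 and a median of -0.69. Of all probe sets 30% lay so, and 33.3% of those at or above the median brightness. The part of these cells in the Slamf7 values was not tested.

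**Figure D2:**
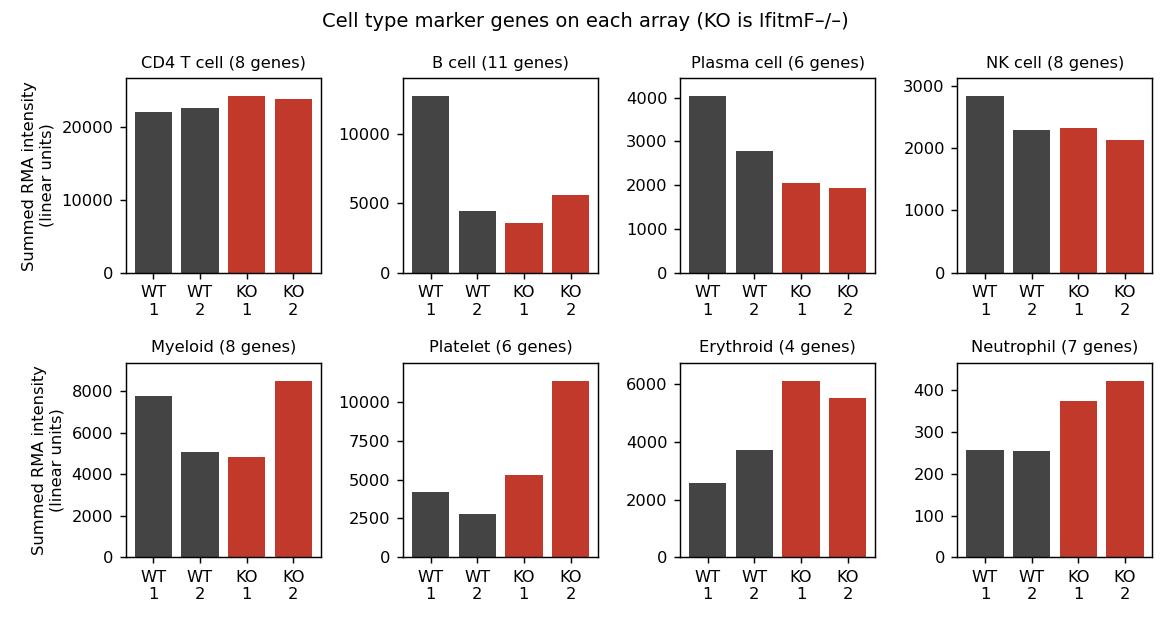
Summed linear RMA intensity (y axis, from 0) of the marker genes of 8 cell types on each array; WT arrays are dark and IfitmF-/- arrays (KO) red. B cell markers are highest on WT replicate 1 at 12705 and platelet markers on IfitmF-/- replicate 2 at 11340, while CD4 T cell markers lie between 22070 and 24297 on all arrays.

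The 6 receptor genes and Cd244a lie side by side on mouse chromosome 1, in the order Cd244a, Ly9, Slamf7, Cd48, Slamf1, Cd84 and Slamf6 in the assembly GRCm38.p6. Called genes were not all adjacent. Slamf1, with a change of -0.35, lies between Cd48 and Cd84. Cd244a, which encodes a CD48 receptor of NK cells, was at 6.97 and 6.76 in WT and at 6.71 and 6.97 in IfitmF-/- cells, with overlap. Of the 15 measured genes on each side of this run, 1 of 30 rose, Dedd, and 0 fell. Dedd, a gene of the death effector domain family, rose by 0.47 (adjusted p = 0.0495), a call lost under robust eBayes and under renewed quantile normalization. Beyond it, Ppox (haem synthesis) had a change of 0.59 and Arhgap30 of 0.44, without a call (adjusted p = 0.0714 and 0.0653). The median change of the 30 neighbours was -0.04. Over the 1122 measured genes of chromosome 1, 4.72% were called higher and 5.26% lower.

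**Figure D3:**
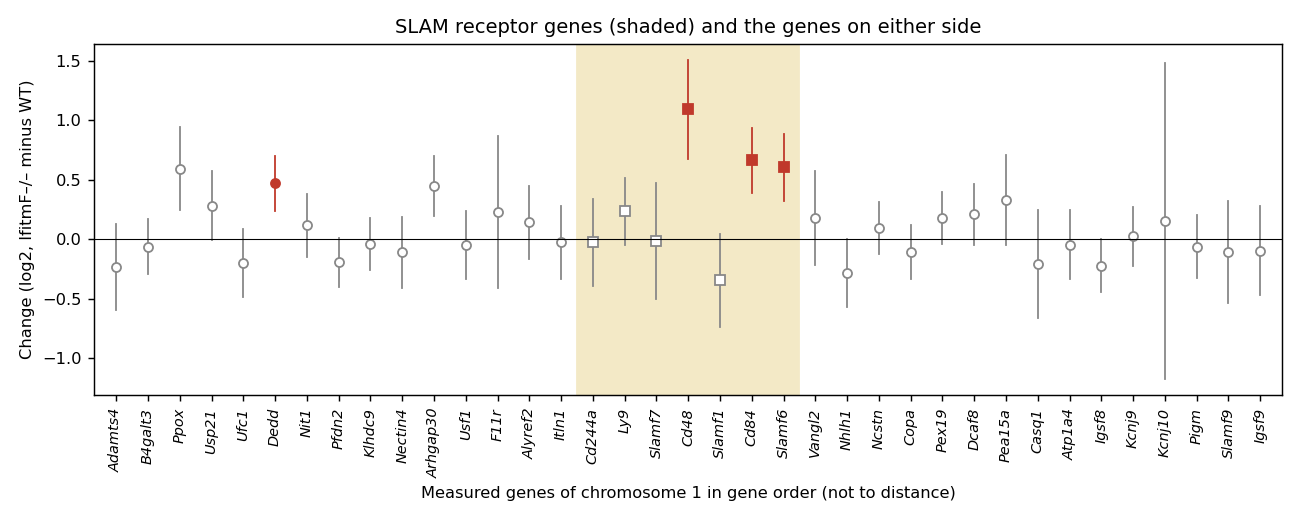
Change of each measured gene (y axis, log2, IfitmF-/- minus WT, with the 95% interval of limma) in gene order along chromosome 1 (x axis, not to distance), with the SLAM run shaded; squares are genes of the run, filled red symbols called higher and open symbols not called. Cd48, Cd84 and Slamf6 are called within the run and Dedd outside it.

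For the neighbouring genes Slamf1, Cd84 and Slamf6, of which the first was not called and the others were, 246 bases just upstream of the gene model are shown to let their sequences be compared. They come from RefSeq (GRCm38.p6, plus strand) at chr1:171766882-171767127, chr1:171839447-171839692 and chr1:171917212-171917457, and capitals mark every match to the motifs named below.
Slamf1: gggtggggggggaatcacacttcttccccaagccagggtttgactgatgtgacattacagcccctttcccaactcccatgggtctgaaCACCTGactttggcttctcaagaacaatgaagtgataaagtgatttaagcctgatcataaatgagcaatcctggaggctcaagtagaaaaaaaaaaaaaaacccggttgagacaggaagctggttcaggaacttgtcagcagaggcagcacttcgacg
Cd84: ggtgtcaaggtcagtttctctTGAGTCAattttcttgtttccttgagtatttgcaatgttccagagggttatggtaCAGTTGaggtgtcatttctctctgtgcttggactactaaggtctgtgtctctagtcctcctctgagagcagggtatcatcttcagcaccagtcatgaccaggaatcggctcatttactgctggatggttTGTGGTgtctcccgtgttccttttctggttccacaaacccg
Slamf6: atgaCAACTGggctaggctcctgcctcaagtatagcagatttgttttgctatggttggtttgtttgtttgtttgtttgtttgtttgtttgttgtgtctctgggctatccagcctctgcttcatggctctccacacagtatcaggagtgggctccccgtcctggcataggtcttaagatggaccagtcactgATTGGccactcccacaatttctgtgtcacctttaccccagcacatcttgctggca

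On both strands, 8 motifs were searched, chosen after the sequences had been seen. An E-box (CANNTG) occurred once in each of the 3 windows, as it did at least once in 65.8% of 32851 RefSeq windows of this length. The Cd84 window alone of the 3 held an AP-1 motif (TGANTCA, in 6.69% of windows) and a RUNX core (TGTGGT, in 13.9%), and the Slamf6 window alone a CCAAT box (CCAAT, in 33.6%). No window of the 3 held an ETS core (GGAAGT, in 19.3%), a TATA box (TATAAA, in 12.3%), a GC box (GGGCGG, in 32.2%) or an interferon-stimulated response element (in 2.94%). The matches did not overlap each other. Of the other members, Cd48 and Slamf7 had windows whose start lies inside a longer gene model and were not printed, and Ly9 and Sh2d1a had none. In the windows not printed, that of Slamf7, which was not called, held 1 AP-1 motif and that of Cd48 held 1 RUNX core. Each also held 1 E-box. A match describes letters only.

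Further genes of the pathway were counted in the same fit. Of 20 listed receptors, adaptors and signalling genes, 18 had a probe set of their own, of which 0 rose and 2 fell (11.1%), with a median change of -0.06. Over all probe sets 4.48% were called higher and 3.95% lower with a median of -0.02, and at or above the median brightness, where 15 of the 18 lie, 7.46% and 6.88%. Fyn, the kinase that SAP recruits, was at 10.84 and 10.90 in WT and at 10.44 and 10.43 in IfitmF-/- cells, and its fall of 0.44 passed narrowly (adjusted p = 0.0493). That call was lost under robust eBayes, renewed quantile normalization and median centring. Bcl10, which carries antigen receptor signals to NF-κB, was at 10.66 and 10.60 in WT and at 9.43 and 9.55 in IfitmF-/- cells, a change of -1.15 (adjusted p = 0.0141). Neither gene's arrays overlapped between genotypes. Prkcq, the protein kinase C of the T cell synapse that acts upstream of Bcl10, had a change of 0.38 and the exchange factor gene Vav1 of 0.46, both just short of a call (adjusted p = 0.0637 and 0.0541). Both were called higher with a trended prior, with median centring, without dim probe sets and among probe sets of 1 gene.

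The other surface partners and adaptors stayed uncalled. Cd2, the T cell receptor for CD48, was bright and close between genotypes at 11.31 and 11.34 in WT and 11.27 and 11.22 in IfitmF-/- cells, with a change of -0.08 (adjusted p = 0.569). Sh2d1b1, which encodes the SAP relative EAT-2 of NK and myeloid cells, was at 7.27 and 6.64 in WT and at 6.96 and 8.23 in IfitmF-/- cells, with overlap. The phosphatase genes that compete with SAP for the receptor tails were not called. They had changes of 0.30 for Ptpn6, -0.06 for Ptpn11 and -0.31 for Inpp5d. The remaining receptor genes Slamf8 and Slamf9, known from myeloid cells, had changes of -0.09 and -0.11, and Slamf9 is also one of the 30 neighbours above.

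**Figure D4:**
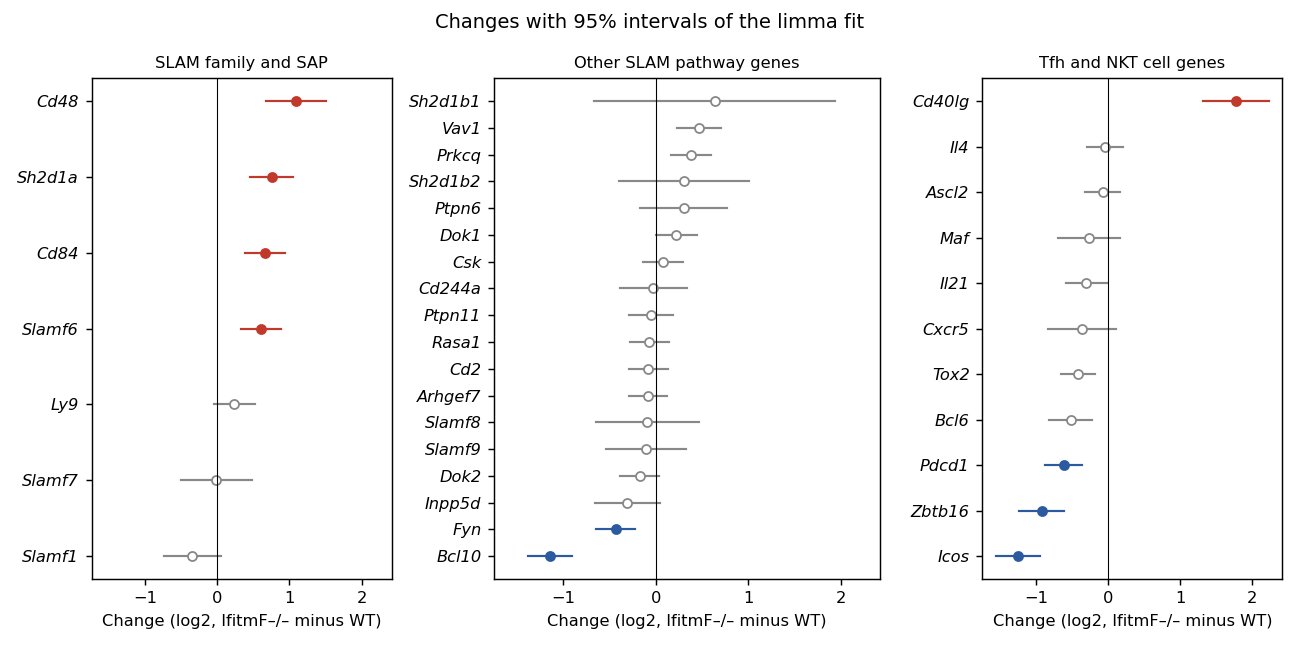
Change (x axis, log2, IfitmF-/- minus WT) of the 7 members, of 18 other genes of the SLAM pathway and of 11 genes of Tfh and NKT cells, with lines for the 95% interval of limma; filled red and blue points are called higher and lower and open points are not called. Called members all lie to the right of 0, whereas Fyn and Bcl10 lie to the left.

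Genes of the cell states that need SAP were examined last. Of 11 genes of Tfh and NKT cells, 3 fell (27.3%) and 1 rose (9.09%), with a median change of -0.36. The shares of all probe sets were 3.95% and 4.48%, and of those at or above the median brightness, as 8 of the 11 are, 6.88% and 7.46%. Icos, a costimulatory receptor of Tfh cells, was at 11.04 and 11.15 in WT and at 9.73 and 9.95 in IfitmF-/- cells, a change of -1.25 (adjusted p = 0.0163). Zbtb16, which encodes the NKT cell transcription factor PLZF, was at 8.40 and 8.36 in WT and at 7.59 and 7.33 in IfitmF-/- cells, a change of -0.92 (adjusted p = 0.0262). Pdcd1, the gene of the inhibitory receptor PD-1, was at 8.25 and 8.22 against 7.70 and 7.54, a change of -0.62 (adjusted p = 0.0371). For these 3 genes the IfitmF-/- arrays lay below both WT arrays. Cd40lg, the ligand through which T cells help B cells, was at 8.63 and 8.17 in WT and at 10.16 and 10.18 in IfitmF-/- cells. It rose by 1.77 (adjusted p = 0.018) and is X-linked like Sh2d1a. Icos and Cd40lg were named in the study's account of these arrays, so their direction is not independent evidence. The Tfh transcription factor gene Bcl6 had a change of -0.52 and Tox2 of -0.42 without a call (adjusted p = 0.068 and 0.0642), and both were called lower without dim probe sets and among probe sets of 1 gene.

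The genes nearest in pattern to each called member, by the root mean square difference of mean-centred log2 values over the 4 arrays among 9994 other genes of at least median brightness, differed from it by 0.0074 to 0.039 log2 units. They were Stap1, Vps26c and Tmem229b for Cd48, Rab2b, Taf6 and Kifbp for Cd84, Cep70, Hacl1 and Fnip2 for Slamf6, and F13a1, Prepl and Hspb11 for Sh2d1a. The nearest gene to Slamf1 was Mphosph6, to Ly9 St6gal1 and to Slamf7 Slc8b1. Among the members themselves, Cd84 and Sh2d1a were the closest pair at 0.12 and Slamf1 and Cd48 the farthest at 0.75. With 4 arrays in 2 groups such likeness describes these arrays and little more.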

How the data were processed

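RNA of 4 samples, 2 per genotype, was measured on Affymetrix Mouse Gene 1.0 ST arrays. The authors deposited RMA intensity values on the linear scale, made by background correction, quantile normalization across arrays and probe set summary; RMA and affy are named in the submitters' processing notes without versions. A shift common to all genes is lost in the quantile step, so changes are relative. Median intensities were 74.8 to 78.1.

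The log2 of each intensity was fitted in R 4.3.3 by lmFit and eBayes of limma 3.58.1 (no covariate, 2 residual and 2.39 prior degrees of freedom), with Benjamini-Hochberg adjustment over all 34760 probe sets. By the platform annotation 21640 probe sets had 1 gene, 1321 had several and 11799 had none. Symbols were updated by gene ID, of which 21553 probe sets were found in GRCm38.p6. A gene took its probe set of highest mean. Replicates were separate purifications per the study. The fit was tested on simulated data.

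Members, lists and the naming rule were chosen with earlier results of these data known. All members were named, with called list genes (up to 6, else the 2 of smallest p) and the 3 nearest patterns. Other genes were named after their values were seen. Lck and Nfkb1 are among the list genes without a probe set annotated to that gene alone, and some other items are not reported here. Alternatives were a trended or robust prior, median centring, renewed quantile normalization, removal of dim probe sets or of those without exactly 1 gene, a block for the replicate number, an unmoderated Student test and omission of each array. Averaging the probe sets of a gene gave nothing further, as each member has 1.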

Additional observations from a re-analysis of the deposited data

How the results depend on the processing

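The 4 calls (Cd48, Cd84, Slamf6 and Sh2d1a) held with a trended or robust prior, renewed quantile normalization, median centring, without dim probe sets and among probe sets of 1 gene, with changes of 0.60 to 1.13 and adjusted p values of 0.0128 to 0.0461. Slamf1, Ly9 and Slamf7 were called in no setting. Slamf7 had a change of 0.028 with median centring, against -0.01, and ran from -0.24 to 0.21 when each array was left out, with 0.21 without WT replicate 1 and 0.07 without IfitmF-/- replicate 1.

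With the replicate number as a block the changes of Cd48, Cd84, Slamf6 and Sh2d1a stayed at 1.09, 0.66, 0.60 and 0.75 by construction, but 0 of the 7 members, 0 SLAM pathway genes, 0 Tfh and NKT genes, 0 neighbours and 0 of 34760 probe sets were called (8016 at an unadjusted p under 0.05), with adjusted p values of the 4 genes of 0.0694, 0.0937, 0.118 and 0.0867. The samples share only a number, and deviations of same-numbered arrays correlated at -0.12. With the numbers crossed, chosen after seeing the data, 0 members, 1 pathway gene, 2 Tfh and NKT genes, 0 neighbours and 975 probe sets were called. The Student test without moderation called 4 members at an unadjusted p under 0.05 and, on the same changes (1.09, 0.66, 0.60 and 0.75), 0 members and 0 genes of each list after Benjamini-Hochberg adjustment. Over all 34760 probe sets the Student test had 6811 at an unadjusted p under 0.05 and 4 called after adjustment. Its adjusted p values for the 4 genes were 0.194 to 0.219. The block left 1 residual degree of freedom and the unmoderated test borrows no spread.

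Leaving out each array gave changes of 0.90 to 1.29 for Cd48, 0.56 to 0.76 for Cd84, 0.52 to 0.68 for Slamf6 and 0.63 to 0.87 for Sh2d1a. Each of these fits leaves 1 array in a genotype, and the calls of all probe sets were lost in them. The losses of members, of the member past the fold and range criterion (1 on all arrays) and of listed genes are therefore not particular to them. SLAM pathway genes called, 2 in all and both lower, were 4 with a trended prior, without dim probe sets and among probe sets of 1 gene. In each of these 2 were higher and 2 lower. With median centring 3 were called, 2 higher and 1 lower. A robust prior and renewed quantile normalization each left 1, which was lower. Neighbours called, 1 in all, were 2 with a trended prior, 0 with a robust prior and with renewed quantile normalization, and 3 without dim probe sets and among probe sets of 1 gene. Over all probe sets 53.1% of calls were higher, and 60.2% with median centring. With a trended or robust prior, renewed quantile normalization or median centring 2843 to 3678 of 34760 probe sets were called, beside 2930. The number was 4032 of 17380 without dim probe sets and 3037 of 21640 among probe sets of 1 gene. In these 2 settings a larger share of all tested probe sets was thus called.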
